A study of Mus musculus with 4 samples.

Results

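Cells that meet a rule for monocyte-derived macrophages were described in mouse brain 3 days after a permanent stroke. The rule kept cells with at least 500 genes, at least 1000 unique molecular identifiers (UMIs, counted transcripts) and at most 10% mitochondrial UMIs. Of these it took cells with fewer than 30 UMIs per 10000 from the 6 microglial genes P2ry12, Tmem119, Siglech, Fcrls, Olfml3 and Selplg, and with at least 10 per 10000 from the 5 monocyte and macrophage genes Ccr2, Chil3, S100a4, Plac8 and Arg1. It left out cells with 50 or more UMIs per 10000 of the neutrophil genes S100a8 and S100a9, with 4 or more UMIs of the 5 T and NK cell genes Cd3e, Cd3d, Cd3g, Trbc2 and Nkg7, or with 2 or more UMIs of the 4 dendritic cell genes Cd209a, Flt3, Dpp4 and Klrb1b. Its members were thus chosen by the measured counts of these genes. It found 1475 of 18045 quality-passing cells, namely 925 cells of the female stroke pool, 474 of the male stroke pool, 23 of the female sham pool and 53 of the male sham pool.

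The samples were pools of 4 mice each, a single pool for female stroke, male stroke, female sham and male sham, so no group had a replicate. All mice carried the genotype Tmem119-2A-CreERT2;Ai6, in which an inducible Cre at the microglial gene Tmem119 switches on the green fluorescent protein ZsGreen. The stroke mice had their right middle cerebral artery tied off for good (pMCAO), and sham mice had the surgery without the ligation. Live ZsGreen+ cells of the operated hemisphere were sorted after perfusion and a Percoll step and read with 10x Genomics 3' v3.1 chemistry, so cell shares below describe this sort and not the tissue.

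Monocytes are made in bone marrow and circulate as classical cells, which carry the chemokine receptor Ccr2 and much Ly6c, and as patrolling cells, which carry Cx3cr1 and depend on the nuclear receptor Nr4a1. After an ischemic stroke classical monocytes enter the injured tissue, where they turn into macrophages that clear dead cells and myelin. Such macrophages are known for arginase (Arg1), chitinase-like 3 (Chil3) and, as they load with lipid, for the lysosomal glycoprotein Gpnmb. In the mouse genome build mm10 the genes of the label lie at Arg1 (chr10:24915221-24927484, minus strand), Gpnmb (chr6:49036546-49070929, plus strand), Chil3 (chr3:106147554-106167564, minus strand), Ccr2 (chr9:124101950-124113557, plus strand), S100a4 (chr3:90603771-90606045, plus strand), Thbs1 (chr2:118111876-118127133, plus strand) and Clec4d (chr6:123262111-123275265, plus strand).

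The pools held 4562 to 5931 barcodes and 29581392 to 66072270 UMIs. Barcodes reached down to 500 or 501 UMIs in 3 pools, but only to 4198 in the male sham pool. Any 2 pools shared 4 to 11 barcodes, and none of them was a macrophage by the rule in both. Doublets were not called. In the male sham pool 2 of the 53 rule cells carried Xist, the RNA of the inactive X chromosome, with 18 UMIs in all, and no rule cell of the male stroke pool did. The rule cells had summed UMIs of 12949054 in the female stroke, 6814821 in the male stroke, 195848 in the female sham and 479145 in the male sham pool. Their median was 13149 UMIs in the female stroke and 13179.5 in the male stroke pool, against 6954 in the female sham and 6843 in the male sham pool. The sham sums are small and 1 cell can hold most UMIs of a gene there, so the number of cells behind a sham value is given where that matters.

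Cells meeting the rule were a large minority of the sorted cells after stroke and rare after sham surgery. They made up 18.6% (95% interval 17.5 to 19.7) of the quality-passing cells of the female stroke pool and 11.6% (10.6 to 12.6) of the male stroke pool. In the sham pools they were 0.574% (0.364 to 0.860) in females and 1.07% (0.802 to 1.40) in males. Within each sex the stroke and sham intervals lay apart, and so did those of the 2 stroke pools. The intervals are exact Clopper-Pearson intervals and cover counting error only, not the spread between mice or pools. With at most 5% mitochondrial UMIs the share was 28.3% of the female stroke pool, over 1.5 times the value above, and 17.1% of the male stroke pool. The median mitochondrial share of macrophages was 2.89% for the female and 3.02% for the male stroke pool, while that of microglia, taken by a gate with at least 30 per 10000 of the microglial genes and fewer than 10 of the monocyte ones, was 4.96% and 4.56% in the same pools.

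**Figure D1:**
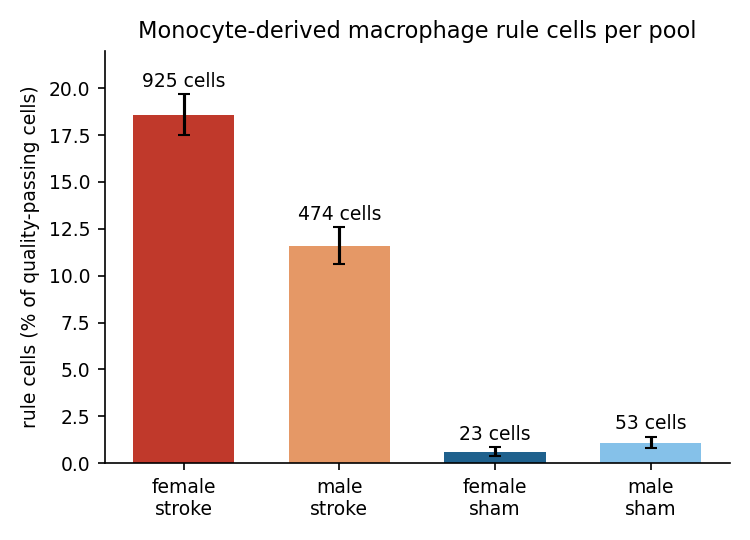
Rule cells as a percentage of quality-passing cells in each pool (vertical axis, linear from 0), with exact 95% Clopper-Pearson intervals as error bars and the number of cells above each bar. The stroke pools stand at 18.6% (female) and 11.6% (male), and the sham pools at 0.574% and 1.07%.

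The monocyte floor and the dendritic exclusion moved the small sham counts by larger shares than the stroke counts. A monocyte floor of 20 in place of 10 left 15 of 23 female and 30 of 53 male sham cells, and 777 of 925 female and 369 of 474 male stroke cells. A floor of 5 gave 997 female and 515 male stroke cells and 35 female and 63 male sham cells. Without the dendritic exclusion these were 1031 and 546 in the stroke and 45 and 87 in the sham pools. In the female stroke pool 25 macrophages had 20 to 30 microglial UMIs per 10000, and 19 cells with 30 to 40 stayed outside. In the male stroke pool these were 25 and 6. Cells with 10 to 15 monocyte UMIs per 10000 numbered 73 for the female and 56 for the male stroke pool, and cells with 5 to 10, which stayed outside, 72 and 41. Gpnmb, which the rule did not use, stood at 874 CPM inside and 1030.1 CPM outside in the female, and at 841 CPM inside and 745 CPM outside in the male stroke pool. CPM (counts per 1000000) is the summed UMIs of a gene over the summed UMIs of all genes in a group, times 1000000, here and below.

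All 7 genes of the label were abundant in the macrophages of both stroke pools. The values chose the members in part, as did the microglial genes, so the contrast with microglia is a description with no test. Thbs1, the matrix glycoprotein thrombospondin 1, stood at 2035 and 1531 CPM in the macrophages of the female and male stroke pools and 25.6 and 15.2 CPM in the microglia gate of the same pools. S100a4, a calcium-binding protein of motile cells, was at 1489 and 1257 CPM in the macrophages of the female and male stroke pools and 20.7 and 12.7 CPM in the microglia gate of the same pools. Arg1, which cleaves arginine to ornithine and urea, had 1285 and 1027 CPM in the macrophages of the female and male stroke pools and 6.16 and 2.02 CPM in the microglia gate of the same pools. The stroke macrophages thus held each of these at a level of over 1000 CPM, with the microglia of the same pools below 26 CPM. Chil3 had 1061 and 512 CPM in the macrophages of the female and male stroke pools and 5.22 and 1.36 CPM in the microglia gate of the same pools. The corresponding levels of Ccr2, the receptor for the chemokine Ccl2, were 796 and 822 CPM in macrophages and 6.57 and 2.33 CPM in microglia. Gpnmb was at 718 and 789 CPM in the macrophages of the female and male stroke pools and 9.14 and 5.63 CPM in the microglia gate of the same pools. The C-type lectin receptor gene Clec4d stood lowest of the 7, at 326 and 293 CPM in macrophages and 3.01 and 1.72 CPM in microglia. Reads of Chil3 and its near-identical relative Chil4, of Ly6c2 and Ly6c1, of Lyz2 and Lyz1 and of Lilrb4a and Lilr4b may be split between the copies, so these values are uncertain.

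Outside the rule, 167 of 3351 genes at 50 CPM or more in both pools of the higher class (4.98%) were at least 4-fold higher in macrophages than in microglia in both stroke pools, and 199 (5.94%) at least 4-fold lower. Among the genes furthest above the microglial level were S100a6 (1858 and 1525 CPM in macrophages, 191 and 326 times the microglial level in the female and male stroke pool), Ahnak, a large scaffold protein (496 and 442 CPM, 195 and 253 times), and Pf4, platelet factor 4, a chemokine that macrophages also make (1436 and 1646 CPM, 88.6 and 202 times). This ranking set macrophages against microglia alone, and levels in the other sorted cells are not given here. F10, coagulation factor X, stood at 324 and 246 CPM, 156 and 296 times the microglial level. Emp1, an epithelial membrane protein, was at 269 and 267 CPM, 119 and 205 times that level, and Hp, haptoglobin, at 145 and 101 CPM, 174 and 332 times. Lyz2, the lysozyme of myeloid cells, reached 12208 and 12254 CPM, against 819 and 742 CPM in microglia. On the other side stood the microglial genes Sparc (33.2 and 41.2 CPM in macrophages, 65.4 and 55.3 times higher in microglia) and Sall1, a transcription factor of microglia (3.17 and 2.49 CPM, 55.6 and 68.7 times higher in microglia). Cst3, cystatin C, was at 1884 and 2048 CPM in macrophages and 18280.5 and 19422 CPM in microglia. Of 9 S100, annexin and galectin genes outside the rule all 9 were at least 4-fold higher in macrophages, and of 11 tested genes of the G2/M phase all 11 were at least 4-fold lower.

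Some genes known for stroke macrophages did not separate them from the microglia of the same tissue. Spp1, which encodes osteopontin, stood at 2354 and 3190.1 CPM in the macrophages of the female and male stroke pools and 2884 and 3180.1 CPM in the microglia gate of the same pools. Ctss, cathepsin S, was at 4478 and 4765 CPM in the macrophages of the female and male stroke pools and 4680.1 and 5079 CPM in the microglia gate of the same pools. Ctsd, cathepsin D, had 6052 and 6374 CPM in the macrophages of the female and male stroke pools and 11832 and 12672 CPM in the microglia gate of the same pools. Spp1 and Ctss therefore lay within 1.5 times of each other in the 2 classes, and Ctsd was higher in microglia. Apoe, the main lipid carrier protein of the brain, was the opposite case, at 21913 and 24447 CPM in macrophages and 2699 and 2247 CPM in microglia.

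**Figure D2:**
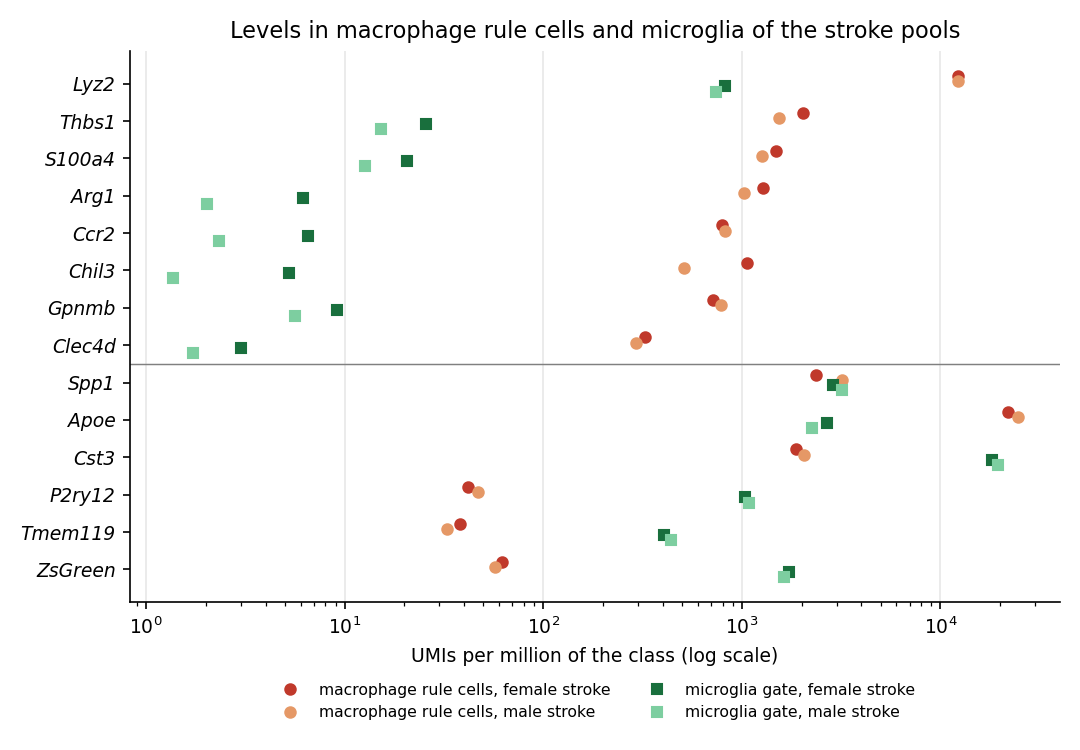
Levels as CPM on a log axis (horizontal) for Lyz2 and the 7 genes of the label (above the line) and for 6 further genes (below it), with circles for macrophage rule cells and squares for the microglia gate of the 2 stroke pools. The genes above the line lie far to the right in macrophages (Arg1 at 1285 and 1027 CPM against 6.16 and 2.02 CPM), Spp1 overlaps, and ZsGreen lies far to the left.

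The macrophages held little RNA of the reporter by which all cells were sorted. ZsGreen stood at 62.3 and 57.4 CPM in the macrophages of the female and male stroke pools and 1728 and 1627 CPM in the microglia gate of the same pools. Tmem119, whose locus drives the Cre and which the rule used, was at 37.9 and 32.6 CPM in macrophages and 407 and 439 CPM in microglia. After each cell had been thinned to 3000 UMIs, 12.6% (10.5 to 14.97) of female and 12.95% (10.1 to 16.3) of male stroke macrophages had a ZsGreen UMI, against 96.0% and 94.5% of microglia. Before thinning the macrophage shares were 42.4% and 37.8%. Of the cells of a neutrophil gate, 12 of 45 in the female and 12 of 24 in the male stroke pool had a ZsGreen UMI at the same depth. The neutrophil intervals were wide, at 14.6 to 41.9% and 29.1 to 70.9%. Only 45 of 79 and 24 of 56 neutrophil-gate cells had 3000 UMIs, and before thinning the shares of that gate were 30.4% and 37.5%. In a dendritic gate, with 2 or more UMIs of the dendritic genes of the rule, the thinned shares were 19.2% and 19.8%. Whether the ZsGreen UMIs of macrophages reflect expression of the reporter was not tested. The median depth before thinning was 13149 and 13179.5 UMIs in macrophages and 3168 and 2680.0 UMIs in the neutrophil gate of the female and male stroke pools.

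Stroke and sham rule cells differed in many genes. The comparison set the 2 stroke pools against the 2 sham pools on counts summed per pool, with sex as a term, by edgeR's quasi-likelihood test with Benjamini-Hochberg adjustment at 0.05. Of 10104 tested genes outside the rule 922 (9.13%) rose and 1007 (9.97%) fell in the stroke pools, and the median log2 change of all genes was 0.05. Each edgeR list count below is to be read beside these shares over all genes. The fit gave infinite prior degrees of freedom, so each gene took the spread that all genes share in place of its own. With sex as a term, that shared spread rests on how far the stroke against sham change differed between the sexes, and not on mice. The p-values thus do not measure a gene's own spread between pools, or any spread between mice. DESeq2 called 373 rises and 483 falls, and edgeR called 391 and 381 without the female stroke pool and 421 and 369 without the male stroke pool, both with the sex term left out. DESeq2 tested 9711 genes, and the fits without the female and without the male stroke pool 6579 and 6583. Fewer calls in a list under these settings thus go with fewer calls over all genes. In the sham pools the label was only partly met. Gpnmb had 0 UMIs in both, Arg1 12 UMIs in 1 male cell, Thbs1 15 UMIs in 4 male cells and Clec4d 13 UMIs in 4 male cells, while Lyz2 stood at 17309 and 13745 CPM and was found in all 23 and all 53 cells. The sham cells are here called rule cells of the sham pools and not macrophages. The rule took cells in part by Arg1, which sham rule cells nearly lacked, so more stroke than sham cells could enter by that gene. Stroke against sham changes of genes that go with Arg1 were thus open to this selection. Its size was not tested.

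Most listed genes of lipid handling and phagocytosis rose in the stroke pools. Of the lipid-phagocyte genes, 15 of 20 tested members rose and 2 fell (median log2 change 1.69). Gpnmb stood at 718 CPM in the female and 789 CPM in the male stroke pool, against 0 CPM in the female and 0 CPM in the male sham pool. Against a floor of 3 UMIs per sham pool it was at least 46.9-fold higher in the female and 126-fold higher in the male stroke pool, and its edgeR adjusted p was 2.0e-55. No sham rule cell held it, while 523 of 925 and 270 of 474 stroke macrophages did. Spp1 was at 2354 CPM in the female and 3190.1 CPM in the male stroke pool, against 20.4 CPM in the female and 10.4 CPM in the male sham pool, a log2 change of 7.80 ± 0.44 (SE), with an edgeR adjusted p of 3.6e-67. Fabp5, a fatty acid carrier, had 5505 CPM in the female and 4932 CPM in the male stroke pool, against 128 CPM in the female and 102 CPM in the male sham pool, a log2 change of 5.62 ± 0.35. Both stroke values of Spp1 and of Fabp5 lay more than 30 times above both sham values. DESeq2, which called Spp1 and Fabp5, gave Gpnmb an adjusted p of 0.0866. Across thinned stroke macrophages these 3 genes had a weak correlation with the rule gene Arg1. Pearson's r of log counts was 0.21 and 0.19 for Gpnmb in the female and male pool. It was 0.34 and 0.18 for Spp1 and 0.17 and 0.18 for Fabp5. How far the selection by Arg1 shaped these rises was not tested. Plin2, the coat protein of lipid droplets, rose by 3.37 ± 0.30 to 1627 and 1551 CPM in the female and male stroke pools, against 128 and 196.2 CPM in the sham pools. The cholesterol exporter gene Abca1 rose as well, at 332 and 289 CPM in the female and male stroke pools and 20.4 and 31.3 CPM in the sham pools, as did Nceh1, a cholesteryl ester hydrolase, at 273 and 253 CPM in the female and male stroke pools and 20.4 and 12.5 CPM in the sham pools. Apoe rose by 1.56 ± 0.32 and Cd63, a tetraspanin of late endosomes, by 4.87 ± 0.34. The list held exceptions by edgeR. Cd36, a scavenger receptor for oxidized lipid, fell to 64.2 and 67.1 CPM in the stroke pools, against 194 and 81.4 CPM in the sham pools, and Lpl, lipoprotein lipase, fell to 12.05 and 11.6 CPM, against 86.8 and 33.4 CPM. The Cd36 call did not hold with DESeq2, without the sex term, without either stroke pool or without the female sham pool, and with a floor of 20 in the rule its log2 change was 0.06.

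Lysosomal proteases rose with them. In that list 12 of 15 tested members rose and 1 fell (median log2 change 1.35, or 1.13 with the genes at 0 in both sham pools set to their bounds). Ctsb, cathepsin B, stood at 7121 CPM in the female and 7120.1 CPM in the male stroke pool, against 1042 CPM in the female and 837 CPM in the male sham pool, a log2 change of 3.04 ± 0.31. Ctsd rose by 4.34 ± 0.33, with 6052 and 6374 CPM in the female and male stroke pools and 276 and 379.8 CPM in the sham pools. All stroke values of these 2 proteases were at least 6 times the sham values. Ctsl, cathepsin L, rose to 1514 and 1581 CPM, against 91.9 and 157 CPM in the sham pools. Cst3, an inhibitor of some of these proteases that is also abundant in microglia and dendritic cells, was the single fall of the list, with 1884 and 2048 CPM in the female and male stroke pools and 7240.3 and 6559.6 CPM in the sham pools. Of 11 tested genes for the uptake of dying cells 5 rose, among them Stab1, a phosphatidylserine receptor (367 and 411 CPM in the female and male stroke pools and 5.11 and 31.3 CPM in the sham pools), and the bridging protein gene Gas6, and 4 fell, among them Axl, a receptor for Gas6 (31.1 and 29.1 CPM in the female and male stroke pools and 128 and 109 CPM in the sham pools). Without the female stroke pool 7 of 14 and without the male stroke pool 6 of 13 tested lysosomal genes were called higher, and DESeq2 called 1 fall among the uptake genes.

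Iron and heme genes followed the same direction. Of these, 10 of 14 tested members rose and 1 fell (median log2 change 1.64, or 1.43 with the genes at 0 in both sham pools set to their bounds). Hmox1, which opens the heme ring, stood at 629.9 CPM in the female and 792 CPM in the male stroke pool, against 51.1 CPM in the female and 75.1 CPM in the male sham pool, a log2 change of 3.57 ± 0.32 with an edgeR adjusted p of 3.7e-26. The ferritin chains Fth1 (23162 and 20369 CPM in the female and male stroke pools and 3712 and 5719 CPM in the sham pools) and Ftl1 (18789 and 18518 CPM in the female and male stroke pools and 3033 and 4487 CPM in the sham pools) each rose more than 3-fold. Blvrb, which reduces biliverdin, Slc48a1, a heme transporter, and the metallothionein gene Mt1 rose too. DESeq2 called 6 of 13 tested iron and heme genes higher, and edgeR without the male stroke pool 6 of 10. Fth1 and Ftl1 have many processed copies in the genome, and the sources used here do not say how reads shared between copies were counted.

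Genes of glycolysis rose for the most part, and those of the hypoxia response in fewer cases. Of the glycolytic genes, 11 of 18 tested members rose and 2 fell (median log2 change 1.28). Aldoa, an aldolase, stood at 999.8 and 941 CPM in the female and male stroke pools and 306 and 363 CPM in the sham pools, Pkm, pyruvate kinase, at 1171 and 981 CPM in the female and male stroke pools and 357 and 394 CPM in the sham pools, and Ldha, lactate dehydrogenase, at 539 and 467 CPM in the female and male stroke pools and 138 and 229.6 CPM in the sham pools. Slc2a6, a sugar transporter of the lysosome, fell to 5.41 and 7.92 CPM in the female and male stroke pools, against 56.2 and 33.4 CPM in the sham pools. Without the female stroke pool 7 of 18 glycolytic genes were called higher. Of the hypoxia genes, 5 of 13 tested members rose and 1 fell (median log2 change 1.08). Hif1a, the oxygen-regulated transcription factor, was at 555 CPM in the female and 468 CPM in the male stroke pool, against 46.0 CPM in the female and 125 CPM in the male sham pool, a log2 change of 2.57 ± 0.30. The growth factor gene Vegfa stood at 37.9 and 23.5 CPM in the stroke pools and at 0 UMIs in both sham pools, and was at least 2.48-fold higher in the female and 3.75-fold higher in the male stroke pool against the floor. By DESeq2 its adjusted p was 0.525, and both DESeq2 and edgeR without the male sham pool called 3 of 13 hypoxia genes higher.

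Matrix, protease and clotting genes changed in both directions. For matrix and adhesion genes, 6 of 14 tested members rose and 1 fell (median log2 change 0.50). Thbs1 had 2035 CPM in the female and 1531 CPM in the male stroke pool, against 0 CPM in the female and 31.3 CPM in the male sham pool, with an edgeR adjusted p of 6.4e-57, and 12 of its 15 male sham UMIs lay in 1 cell. Fn1, fibronectin, stood at 1336 and 1224 CPM in the female and male stroke pools and 684 and 551 CPM in the sham pools, and Tgfbi, a matrix protein induced by TGF-beta, at 2613 and 2285 CPM in the female and male stroke pools and 342 and 599 CPM in the sham pools. Itga4, the integrin by which leukocytes hold on to vessels, fell to 58.4 and 56.5 CPM, against 648 and 294 CPM in the sham pools. Of the proteases and their inhibitors, 8 of 14 tested members rose and 2 fell (median log2 change 1.98, or 0.74 with the genes at 0 in both sham pools set to their bounds), with Adam8 (244 and 190.0 CPM in the female and male stroke pools and 5.11 and 14.6 CPM in the sham pools) and Mmp14 (119 and 96.6 CPM in the female and male stroke pools and 15.3 and 20.9 CPM in the sham pools) among the rises. Of the clotting and fibrinolysis genes, 3 of 11 tested members rose and 2 fell (median log2 change 0.55, or 0.40 with the genes at 0 in both sham pools set to their bounds). The falls were Plaur, the urokinase receptor (74.5 and 51.9 CPM in the female and male stroke pools and 102 and 123 CPM in the sham pools), without a call by DESeq2, and Serpinb2, an inhibitor of plasminogen activators (0.772 and 0 CPM in the female and male stroke pools and 66.4 and 50.1 CPM in the sham pools). Coagulation factor gene F10 rose to 324 and 246 CPM, against 71.5 and 68.9 CPM in the sham pools. F7, coagulation factor VII, had 50.4 and 44.0 CPM in the stroke pools and 0 UMIs in both sham pools, with an edgeR adjusted p of 9.5e-10 and a DESeq2 adjusted p of 0.440. Without the female stroke pool 2 of 14 matrix genes were called higher, Fn1 not among them, and DESeq2 called 4 of 12 protease and inhibitor genes higher.

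Among chemokine ligands more genes rose than fell. Of the ligand genes, 11 of 17 tested members rose and 1 fell (median log2 change 1.41, or 0.97 with the genes at 0 in both sham pools set to their bounds). Pf4 stood at 1436 CPM in the female and 1646 CPM in the male stroke pool, against 86.8 CPM in the female and 83.5 CPM in the male sham pool, a log2 change of 4.29 ± 0.32. Ccl6 was at 1194 and 1074 CPM in the female and male stroke pools and 459.5 and 603 CPM in the sham pools and Ccl9 at 689 and 658 CPM in the female and male stroke pools and 194 and 215 CPM in the sham pools, the values of both stroke pools lying above those of both sham pools. Ccl2, the ligand of Ccr2, had 740.4 and 824 CPM in the female and male stroke pools and 46.0 and 522 CPM in the sham pools, and 237 of its 250 male sham UMIs lay in 1 cell. Ccl7, another ligand of that receptor, had 292 and 311 CPM in the female and male stroke pools and 0 and 113 CPM in the sham pools, 53 of its 54 male sham UMIs lying in 1 cell. Ccl12 was the single fall, to 95.1 and 142 CPM in the stroke pools, against 143 and 401 CPM in the sham pools. It was found in 4 female and 4 male sham cells, and 1 cell held 57.1% of the female and 1 cell 97.4% of the male sham UMIs. The fall thus describes a few sham cells, and without the male sham pool the log2 change of Ccl12 was -0.04. DESeq2 called 4 of 17 ligand genes higher and neither Ccl2 nor Ccl7 (adjusted p 0.369 and 0.379), and without the female stroke pool edgeR called 5 of 13. Of the receptor genes outside the rule, 4 of 7 rose, among them Ccr1 (456 and 391 CPM in the female and male stroke pools and 40.8 and 83.5 CPM in the sham pools), Cxcr4 and the complement receptor gene C5ar1, and 2 fell, among them Cx3cr1 (198 and 242 CPM in the female and male stroke pools and 955 and 497 CPM in the sham pools).

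Inflammatory cytokine genes did not rise as a list. Over all tested genes 9.13% rose and 9.97% fell. Of the IL-1 and inflammasome genes, 1 of 10 tested members rose and 3 fell (median log2 change -0.61). Il1b, the cytokine interleukin-1 beta, was at 48.2 CPM in the female and 66.6 CPM in the male stroke pool, against 148 CPM in the female and 288 CPM in the male sham pool, a log2 change of -1.82 ± 0.26 with an edgeR adjusted p of 1.7e-10. Casp1, the protease that activates it, fell as well. Of the TNF, IL-6 and NF-kappaB genes, 1 of 10 tested members rose and 2 fell (median log2 change 0.15). Tnf itself stood at 12.3 and 14.5 CPM in the female and male stroke pools and 5.11 and 12.5 CPM in the sham pools and did not pass the test, and Nos2, the inducible nitric oxide synthase that competes with Arg1 for arginine, had 0.232 and 0 CPM in the stroke pools and 0 UMIs in both sham pools, too few to be tested. Of the arginine and polyamine genes outside the rule, 3 of 8 tested members rose (median log2 change 0.99), while DESeq2 called 1 of 8. Of the genes known for repair-type macrophages outside the rule, 4 of 6 tested members rose and 1 fell (median log2 change 1.68). Msr1, a scavenger receptor, was at 292 and 255 CPM in the female and male stroke pools and 81.7 and 54.3 CPM in the sham pools, and Mgl2, a lectin that dendritic cells also carry, fell to 2.63 and 3.08 CPM in the stroke pools, against 219.6 and 144 CPM in the sham pools. Of the interferon-response genes, 3 of 18 tested members rose and 1 fell (median log2 change 0.04), and 14 did not pass the test in either direction. Ifit1 (41.7 and 32.3 CPM in the female and male stroke pools and 10.2 and 6.26 CPM in the sham pools, the sham values from 2 and 3 UMIs) and Oasl2 (97.4 and 83.2 CPM in the female and male stroke pools and 61.3 and 39.7 CPM in the sham pools) rose, Ifitm3 fell (1681 and 1652 CPM in the female and male stroke pools and 2706 and 3164 CPM in the sham pools), all 3 without a call by DESeq2, and Ifitm1 had the largest rise (406 and 425 CPM in the female and male stroke pools and 5.11 and 6.26 CPM in the sham pools, the sham values from 1 and 3 UMIs). Its ratio was 79.6-fold (14.3 to 3145) in females and 67.9-fold (23.2 to 329) in males, with 95% counting intervals.

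The remaining lists had rises, falls or both, beside 9.13% of all tested genes that rose and 9.97% that fell. Of the S100, annexin and galectin genes outside the rule, 5 of 9 tested members rose (median log2 change 0.72), among them Lgals3, a galectin of phagocytes (4084 and 3581 CPM in the female and male stroke pools and 991 and 1369 CPM in the sham pools), and Lgals1 (2207 and 2234 CPM in the female and male stroke pools and 459.5 and 651 CPM in the sham pools). Of the complement genes, 3 of 12 tested members rose and 1 fell (median log2 change 0.33), with the receptor genes C3ar1 (469 and 435 CPM in the female and male stroke pools and 168 and 123 CPM in the sham pools) and C5ar1 among the rises and C3 as the fall (54.3 and 32.0 CPM in the female and male stroke pools and 240.0 and 138 CPM in the sham pools). Of the Toll-like receptor and pattern-recognition genes, 3 of 16 tested members rose and 1 fell (median log2 change 0.37), with Fcgr1, the high-affinity IgG receptor, among the rises (510.2 and 442 CPM in the female and male stroke pools and 143 and 200.4 CPM in the sham pools). Of the inhibitory receptor genes, 3 of 13 tested members rose and 3 fell (median log2 change -0.17). Of the growth factors, 3 of 7 tested members rose and 1 fell (median log2 change 1.05, or 0.81 with the genes at 0 in both sham pools set to their bounds), and Pdgfb, a platelet-derived growth factor chain, was the fall (12.97 and 16.6 CPM in the female and male stroke pools and 138 and 68.9 CPM in the sham pools). Of the microglial genes outside the rule, 2 of 14 tested members rose and 4 fell (median log2 change -0.28).

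The RNA of MHC class II genes, which serve antigen presentation, went the other way. All 9 MHC class II genes tested fell (median log2 change -2.14). H2-Aa, a chain of the class II molecule, stood at 911 CPM in the female and 1289 CPM in the male stroke pool, against 5785 CPM in the female and 5001 CPM in the male sham pool, a log2 change of -2.21 ± 0.29 with an edgeR adjusted p of 1.1e-12. Cd74, its invariant chain, had 2654 and 3557 CPM in the female and male stroke pools and 13286 and 15874 CPM in the sham pools. The sham values of both genes were more than 3 times the stroke values in each sex. After thinning, an H2-Aa UMI was found in 36.6% (33.5 to 39.8) of female and 39.9% (35.5 to 44.5) of male stroke macrophages, against 59.1% (36.4 to 79.3) of female and 49.1% (35.1 to 63.2) of male sham rule cells, and the intervals overlap in both sexes. Dendritic cells carry the same genes. The 11 dendritic markers summed to 53.2 and 53.6 CPM in the stroke pools, with 9 and 9 detected. In the sham pools they summed to 168 and 91.8 CPM, with 7 and 8 detected. The rule capped 4 of them, Cd209a, Flt3, Dpp4 and Klrb1b, by UMIs per cell at any depth, so these sums were fixed in part by the selection. Zbtb46, Xcr1 and Ccr7 were at 0 in both sham pools, while Clec9a was found in 2 female and 1 male sham cells and in 0 stroke macrophages. The part of dendritic cells in the fall of class II genes was not tested.

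Several genes known from patrolling monocytes, singled out after their values were seen, were higher in the rule cells of the sham pools. Ear2, an eosinophil-associated ribonuclease, stood at 5.95 CPM in the female and 8.95 CPM in the male stroke pool, against 475 CPM in the female and 403 CPM in the male sham pool, a log2 change of -5.79 ± 0.29 with an edgeR adjusted p of 1.8e-83. Nr4a1, on which these monocytes depend, had 5.87 and 5.28 CPM in the female and male stroke pools and 281 and 196.2 CPM in the sham pools, found in 6 of 23 female and 22 of 53 male sham cells. Ace, angiotensin-converting enzyme, was at 8.34 and 4.70 CPM in the female and male stroke pools and 311 and 171 CPM in the sham pools, Treml4 at 5.33 and 4.26 CPM in the female and male stroke pools and 143 and 98.1 CPM in the sham pools, and Cd300e, a receptor of monocytes, at 1.24 and 0.734 CPM in the female and male stroke pools and 163 and 81.4 CPM in the sham pools. Further large falls were Pglyrp1, a peptidoglycan recognition protein (5.48 and 2.64 CPM in the female and male stroke pools and 219.6 and 379.8 CPM in the sham pools), Serpinb2 (0.772 and 0 CPM in the female and male stroke pools and 66.4 and 50.1 CPM in the sham pools), Tgm3 (0.154 and 0 CPM in the female and male stroke pools and 30.6 and 29.2 CPM in the sham pools) and S1pr5, a receptor by which patrolling monocytes leave the marrow (0.849 and 0.293 CPM in the female and male stroke pools and 56.2 and 48.0 CPM in the sham pools). Of the 23 female sham cells 6 held Cd300e, 7 Pglyrp1, 4 Serpinb2, 3 Tgm3 and 5 S1pr5. Of the 53 male sham cells 16, 21, 13, 9 and 12 held these genes. The top female sham cell held 46.9%, 41.9%, 53.8%, 66.7% and 27.3% of their UMIs, so these sham levels describe a part of the cells. Of the genes of classical monocytes, Ly6c2 had 273 CPM in the female and 239 CPM in the male stroke pool, against 659 CPM in the female and 759.7 CPM in the male sham pool, and 77 of its 129 female sham UMIs lay in 1 cell. Hp fell, while F13a1 (381 and 375 CPM in the female and male stroke pools and 357 and 355 CPM in the sham pools) and Ms4a6c (1008 and 997 CPM in the female and male stroke pools and 1169 and 1131 CPM in the sham pools) did not pass the test. In all, of the monocyte markers outside the rule, 3 of 20 tested members rose and 9 fell (median log2 change -0.57). The 5 monocyte genes of the rule are given with no test, because it chose the cells by them. Ccr2 was at 796 and 822 CPM in the female and male stroke pools and 1435 and 1192 CPM in the sham pools, S100a4 at 1489 and 1257 CPM in the female and male stroke pools and 1782 and 1346 CPM in the sham pools and Plac8 at 304 and 253 CPM in the female and male stroke pools and 837 and 1653 CPM in the sham pools. Chil3 was at 1061 and 512 CPM in the female and male stroke pools and 1578 and 386 CPM in the sham pools, and 223 of its 309 female sham UMIs lay in 1 cell, so its sham levels describe a few cells. Arg1 was at 1285 and 1027 CPM in the female and male stroke pools and 0 and 25.04 CPM in the sham pools.

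Transcription factors were split. Of these, 5 of 26 tested members rose and 10 fell (median log2 change -0.23), and DESeq2 called 5 falls. Cebpa, a factor of myeloid differentiation, rose to 274 and 297 CPM in the female and male stroke pools, against 107 and 83.5 CPM in the sham pools, and Nr1h3, the oxysterol receptor LXR-alpha, rose as well. Klf4, a factor of patrolling monocytes, fell to 29.7 and 31.3 CPM, against 490.2 and 275 CPM, and Klf2 fell to 48.3 and 67.2 CPM, against 444 and 440.4 CPM. Klf2 was found in 16 of 23 and 37 of 53 sham cells.

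Few macrophages held Mki67. A Mki67 UMI, a mark of cycling cells, was found after thinning in 2.42% (1.52 to 3.64) of female and 2.12% (1.023 to 3.87) of male stroke macrophages, against 19.8% and 17.1% of the microglia of the same pools. Before thinning the macrophage shares were 7.89% and 7.38%. Of 17 tested G2/M genes 16 fell against sham, and 1 female and 2 male sham cells had 10 or more G2/M UMIs. Without cells with that many, 3 of these genes could be tested and none passed (edgeR and Benjamini-Hochberg). Mki67 stood at 12.5 and 14.97 CPM in the female and male stroke pools and 112 and 150.3 CPM in the sham pools, and all 22 female sham UMIs lay in 1 cell. Without cells with 10 or more G2/M UMIs its log2 change was 0.87 in place of -3.16 and did not pass the edgeR test. The neuronal RNA Meg3 also fell, with 5.64 and 8.80 CPM in the female and male stroke pools and 51.1 and 952 CPM in the sham pools, and 2 male sham cells held 10 or more neuron-marker UMIs, 1 of them 303 of the 456 Meg3 UMIs. Without such cells 826 genes rose and 912 fell in the stroke pools.

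**Figure D3:**
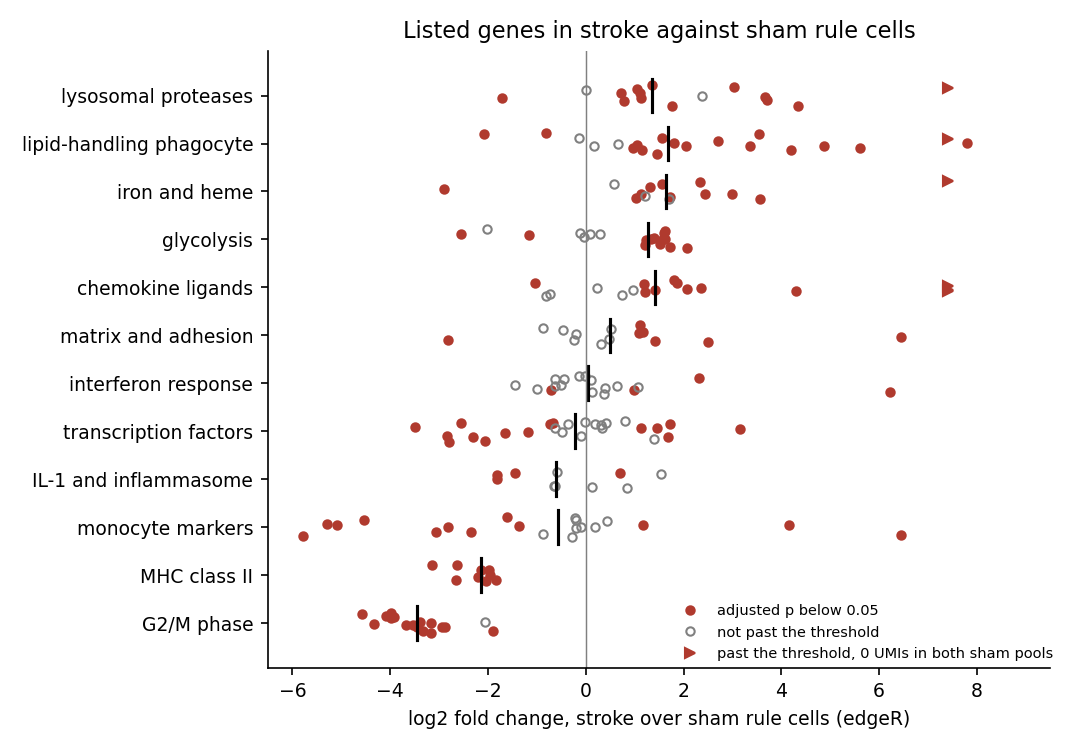
Log2 fold change of each tested gene outside the rule, stroke over sham rule cells by edgeR (horizontal axis), for 12 gene lists, filled where the adjusted p is below 0.05 and open where it is not, with a bar at the list's median. Triangles at the right edge are genes with 0 UMIs in both sham pools, whose fold has no upper limit and which are not drawn to scale. Lysosomal, lipid and iron genes lie mostly to the right (12 of 15, 15 of 20 and 10 of 14 rose), and the 9 MHC class II genes all lie to the left.

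The stroke macrophages were not alike. They ranged from cells with Ccr2 to cells with Gpnmb, and the splits below were chosen after their values were seen and are given with no test. The rule chose the cells by the sum of Ccr2, Chil3, S100a4, Plac8 and Arg1. Splits, ratios and correlations of these genes below were thus shaped in part by the selection. After thinning to 3000 UMIs, which left 910 female and 471 male cells, Gpnmb without Ccr2 was found in 18.8% (16.3 to 21.5) of female and 19.3% (15.9 to 23.2) of male macrophages. Ccr2 without Gpnmb was found in 47.4% (44.1 to 50.7) and 44.4% (39.8 to 49.0), and both genes in 25.7% and 27.2%. The Gpnmb-only cells were deeper, with a median of 17008 and 16017 UMIs before thinning, against 12069 and 11758 UMIs in the Ccr2-only cells of the female and male stroke pools.

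The Gpnmb-only cells held more lipid and heme genes and the Ccr2-only cells more of most monocyte genes, in both sexes. Among genes outside the rule with 50 CPM or more in either subset, 17 of 17 lipid and phagocyte genes and 9 of 9 iron and heme genes were higher in the Gpnmb-only cells of both pools, beside 98 of 202 over all lists. Of the monocyte genes 10 of 14 were higher in the Ccr2-only cells of both pools, beside 82 of 202 over all lists, and 2 were higher in the Gpnmb-only cells, namely Thbs1 (1.496 and 1.67 times) and Clec4d (1.62 and 2.33 times). These counts describe the cells and are no test. Fabp5 was 4.84 and 5.98 times higher in Gpnmb-only than in Ccr2-only cells of the female and male stroke pools, Fabp4, its relative in fat cells and macrophages, 16.1 and 10.04 times, and Cd36 5.72 and 6.11 times. For Spp1 the ratios were 4.40 and 4.25, for Hmox1 2.65 and 2.50, for Ccl7 3.82 and 3.79 and for Pdpn, the membrane protein podoplanin, 4.90 and 5.37. Fabp4 and Cd36 thus marked one end of the range although Cd36 was lower against sham and Fabp4 did not pass that test. Il1b stood at 7.04 and 0.659 CPM in the Gpnmb-only cells of the female and male stroke pools, against 90.4 and 139.6 CPM in the Ccr2-only cells, the male Gpnmb-only value resting on 1 UMI. Ifitm1 was 4.71 and 5.37 times and the rule gene Plac8 7.63 and 4.33 times higher in Ccr2-only cells, as was Vcan, the proteoglycan versican, with 7.27 and 6.75 times. Lyz2 hardly differed, with ratios of 0.909 and 1.004 for Gpnmb-only over Ccr2-only cells. Across the thinned cells Pearson's r of log counts was 0.52 and 0.52 for Gpnmb with Fabp5, 0.45 and 0.48 for Gpnmb with Lgals3 and -0.43 and -0.40 for Ccr2 with Gpnmb in the female and male pool. These describe cells of 1 library each, which share its chemistry and depth.

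**Figure D4:**
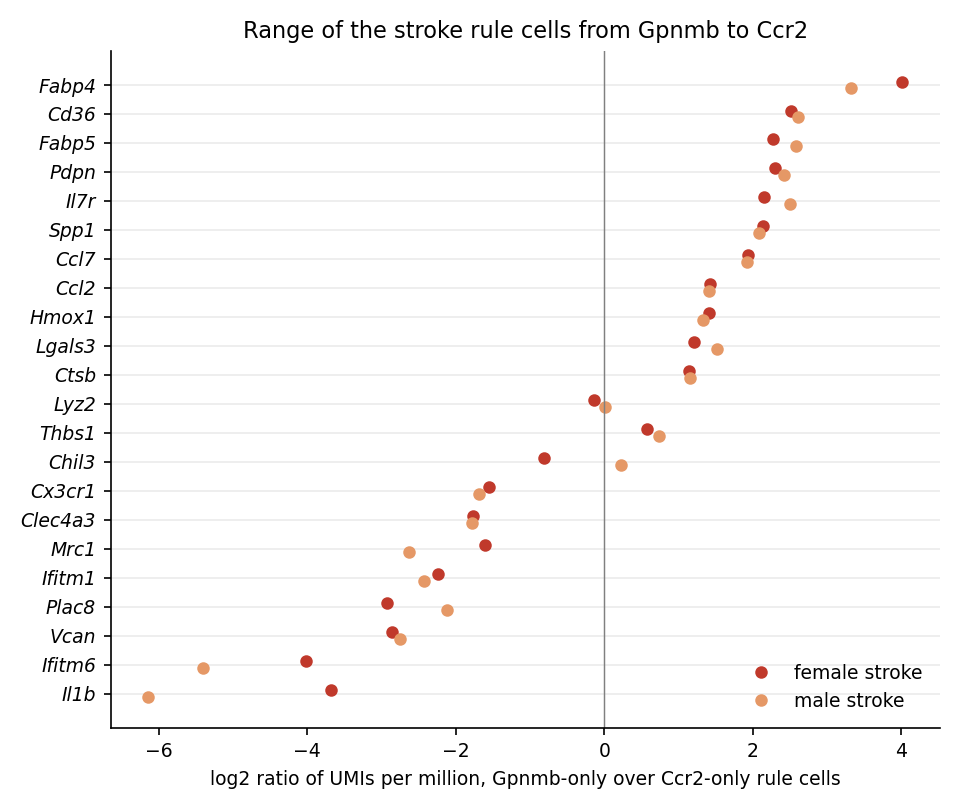
Log2 ratio of CPM in Gpnmb-only over Ccr2-only stroke macrophages (horizontal axis) for 22 genes, with a circle for each stroke pool and counts under 3 UMIs set to 3 (Il1b and Ifitm6 in male Gpnmb-only cells). Both pools fall on the same side of 0 for all genes shown but Lyz2 and Chil3, from Fabp4 (16.1 and 10.04 times) at the right to Il1b (7.04 and 0.659 CPM in Gpnmb-only cells) at the left.

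Chil3 lay across this range. It had an r of 0.02 and 0.07 with Gpnmb and 0.17 and -0.01 with Ly6c2, and Gpnmb and Chil3 stood together in 29.0% of female and 22.3% of male macrophages. Class II genes formed a further range. Cells with 3 or more H2-Aa UMIs after thinning were 25.1% of female and 32.1% of male macrophages. Compared with cells without H2-Aa they held 3.03 and 3.66 times less Chil3, 2.73 and 2.15 times less Arg1 and 2.35 and 2.38 times less Thbs1, and 3.29 and 4.03 times more Ifitm1. H2-Aa and Cd74 had an r of 0.87 and 0.92.

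A further part of the macrophages carried Mrc1, the mannose receptor known from macrophages of the brain's borders. A Mrc1 UMI was found after thinning in 17.9% (15.5 to 20.6) of female and 25.1% (21.2 to 29.2) of male stroke macrophages, against 2.42% and 1.995% of microglia, and in 31.1% and 39.2% before thinning. In the rule cells of the sham pools the thinned shares were 31.8% (13.9 to 54.9) in females and 24.5% (13.8 to 38.3) in males, with intervals that overlapped those of the stroke pools. The stroke macrophages with a Mrc1 UMI held 3.77 and 3.75 times more Pf4, 7.38 and 9.88 times more Folr2, a folate receptor, 3.83 and 3.81 times more Cbr2 and 3.46 and 3.099 times more Gas6 than cells without it in the female and male pools. They held 2.14 and 4.27 times less Gpnmb and 2.11 and 2.71 times less Chil3. The defining border genes Cd163 and Lyve1 were nearly absent, at 3.63 and 4.99 CPM and 1.93 and 0.734 CPM in the stroke macrophages, and 15 of 925 female and 7 of 474 male cells had 2 or more UMIs of them. At least 10 UMIs per 10000 of Mrc1, Cd163, Lyve1 and Pf4 together were held by 228 of 925 (24.6%) female and 163 of 474 (34.4%) male stroke macrophages, and by 3 of 23 female and 2 of 53 male sham cells. Macrophages of the brain's borders among them cannot be told apart from monocyte-derived cells by these counts. Of the 9 tested border-macrophage genes 6 rose in the stroke pools against sham by edgeR, Mrc1 among them (181 and 236 CPM in the female and male stroke pools and 168 and 93.9 CPM in the sham pools), which DESeq2 did not call.

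The macrophages of the female and male stroke pools differed in few genes. Of 2907 genes outside the rule at 50 CPM or more in either pool, 5 (0.172%) were at least 2-fold higher in females with separate exact Poisson intervals and 3 (0.103%) at least 2-fold higher in males. With 1 pool of each sex, sex and pool cannot be told apart and there is no test. The intervals cover counting error only. Xist (516 CPM in females, 0 UMIs in males) and the Y-linked Eif2s3y (3 UMIs in females, 57.8 CPM in males) are the sex-linked genes among them. Ttr, transthyretin of the choroid plexus, stood at 394 CPM in females and 71.6 CPM in males, but 3624 of its female UMIs lay in 1 cell, without which it was at 114 CPM in females, 1.62 times the male level without that pool's top cell. The 5 choroid plexus markers summed to 414 CPM in the female and 77.8 CPM in the male stroke macrophages, all 5 detected in both, and the microglia gate held 710.5 CPM of Ttr in females and 186 CPM in males. Hist1h1b, a replication-dependent histone, was at 22.8 CPM in females and 56.9 CPM in males, with 206 male UMIs in 1 cell, without which and without the top female cell the male level was 1.72 times the female one. Ifitm6 (81.4 CPM in females and 39.8 CPM in males), Mcemp1, a mast cell and monocyte membrane protein (63.7 and 28.3 CPM), and the transcript AA467197 (115 and 55.9 CPM) were the other female-high genes. Lyz1 was at 11.3 CPM in females and 53.9 CPM in males, with 131 of the male UMIs in 1 cell, and without the top cell of each pool at 8.65 and 34.6 CPM, 4.004 times higher in males.

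Of the 5 monocyte genes of the rule Chil3 differed most between the sexes. It stood at 1061 CPM (1044 to 1079) in females and 512 CPM (495 to 529) in males, 2.07 times higher in females, and without the top cell of each pool 2.10 times. After thinning, a Chil3 UMI was found in 60.4% (57.2 to 63.6) of female and 44.2% (39.6 to 48.8) of male stroke macrophages, with 1.16% and 0.482% in the microglia of the same pools, and in 69.7% and 56.5% of macrophages before thinning. Ly6c2 was found in 33.0% (29.9 to 36.1) of female and 25.7% (21.8 to 29.9) of male stroke macrophages. Chil3 is a gene of the rule, so its levels and shares here describe the chosen cells and support no sex difference. The shares of Gpnmb (44.5% of female and 46.5% of male cells) and Arg1 (50.1% and 49.5%) had overlapping intervals. The microglia of these pools had shares of 0.580% and 0.241% for Ly6c2, 1.68% and 0.757% for Gpnmb and 1.58% and 0.550% for Arg1. Mrc1 was more frequent in males, as given above. Class II genes were lower in females, with H2-Eb1 at 658 CPM in females and 1017 CPM in males, 1.55 times higher in males, and the median log2 ratio of female over male of 6 class II genes at 50 CPM or more in either pool was -0.44, beside -0.01 over all genes.

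**Figure D5:**
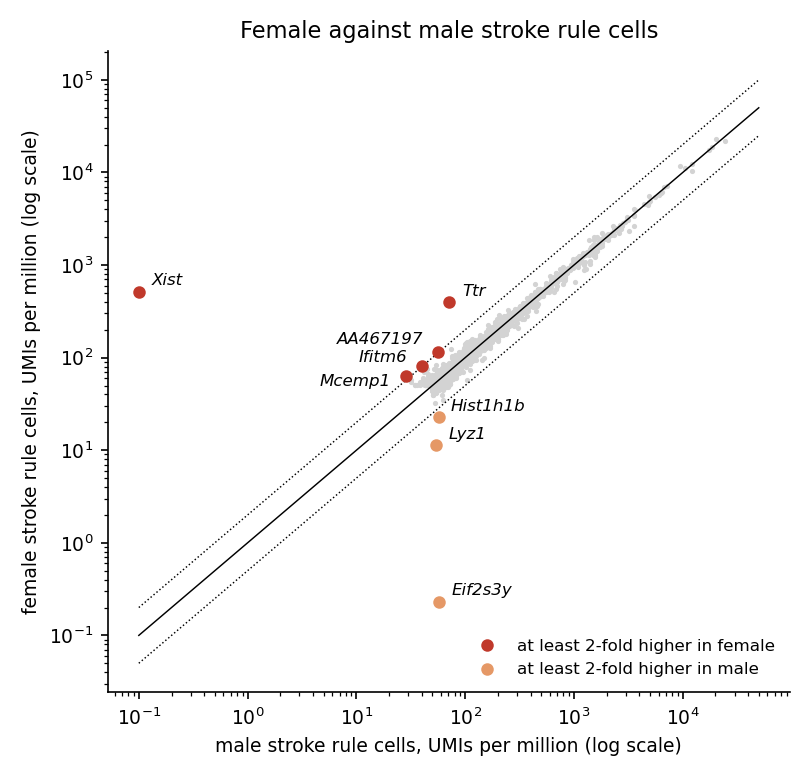
Level of each gene outside the rule at 50 CPM or more in at least one of the 2 pools, in female (vertical axis) and male (horizontal axis) stroke macrophages as CPM on log axes, with lines at equality and at 2-fold (dotted). The 5 genes higher in females and 3 higher in males by at least 2-fold with separate intervals are coloured and named, and Xist, with 0 UMIs in males, is drawn at the left edge.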

How the data were processed

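Cells were sorted and pooled as described above, per the labels. The authors deposited UMI counts per gene and cell barcode for each pool, made with Cell Ranger 7.1.0 on the build mm10, per the submitters' processing notes, whereas the file headers name cellranger 6.1.2. Of 32286 features 40 with a repeated symbol were left out. Further settings, such as the counting of intronic reads, are not given in the sources used here.

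The deposited counts were filtered, summed over the cells of each pool and given as CPM. Stroke and sham pools were compared with edgeR 4.0.16 (R 4.3.3, quasi-likelihood test, TMM scaling, filterByExpr, terms for treatment and sex, two-sided, Benjamini-Hochberg adjustment), which left 1 residual degree of freedom, and DESeq2 1.42.0 was an alternative. No test was made between macrophages and microglia or between the sexes. Shares of cells with a UMI were taken after thinning each cell to 3000 UMIs and carry exact Clopper-Pearson intervals, and levels exact Poisson intervals, at 95%, which cover counting error only. On simulated counts for 10118 genes of the stroke and sham comparison, edgeR called 95.2% of genes raised by a log2 change of 3 and 77.2% of those raised by 2. Of 250 genes lowered by 2 the filter left 217, of which 118 (54.4%) were called. Of 250 lowered by 3 it left 207, of which 154 (74.4%) were called. Of the unchanged genes left by the filter 0.0508% were called. The simulation drew from the fitted spread, with no sex effect and no single cells that hold most UMIs of a gene. These rates therefore describe the simulation and not the error rate in these pools.

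The members and the 37 gene lists were chosen with earlier results of these data known. Genes named were those of the label and the rule, the 5 most abundant of each list, the 15 most different from microglia in each direction, the 8 most different between sexes, the 12 largest stroke changes in each direction, the subset genes and the reporter. Other genes named were chosen after their values were seen, as were the splits of the stroke macrophages. Neither the time of Cre induction nor the age of the mice is in the labels, and no sequence is printed. Some genes that met the rule for named genes are not reported here.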

Additional observations from a re-analysis of the deposited data

Results flagged for a closer look

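Stroke and sham rule cells stood in opposite orders in the sexes for 3 genes, with counting intervals of the stroke over sham ratio on opposite sides of 1. The difference between the sexes was not tested, since each sex had 1 pool of each kind. Chil3, a gene of the rule, had a ratio of 0.673 (0.601 to 0.755) in females and 1.33 (1.14 to 1.55) in males, and 4 female sham cells held it. S100a6, a calcium-binding protein, had 1.29 (1.14 to 1.45) in females and 0.651 (0.612 to 0.693) in males. For S100a10, the partner of annexin A2, the ratio was 1.81 (1.42 to 2.33) in females and 0.808 (0.723 to 0.906) in males. It was found in 6 female and 24 male sham cells, and the top cell held 43.3% of the female and 19.0% of the male sham UMIs. For S100a6 the top sham cell held 24.7% of the female and 12.5% of the male UMIs. Counting intervals do not cover such uneven cells, so these opposite orders may rest on few cells. The ratios of S100a6 and S100a10 without these cells were not computed.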

How the results depend on the processing

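The share of cells meeting the rule moved with the cell filters. In the female stroke, male stroke, female sham and male sham pool it was 18.6%, 11.6%, 0.574% and 1.07% as reported. With 4198 UMIs as the minimum it was 21.2% of the female and 13.4% of the male stroke pool, and with at most 5% mitochondrial UMIs 28.3% and 17.1%. A monocyte floor of 5 gave 20.01% in the female stroke and 0.873% in the female sham pool. With a floor of 20 the female stroke, male stroke and male sham pool had 15.6%, 9.002% and 0.605%. Without the dendritic exclusion the 4 pools had 20.7%, 13.3%, 1.12% and 1.76%. In every setting named both stroke shares exceeded both sham shares.

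DESeq2 called 373 genes higher and 483 lower in stroke against sham rule cells. Leaving out 1 pool each gave 391 to 1330 higher and 369 to 1107 lower genes, with 391 and 381 without the female and 421 and 369 without the male stroke pool. Library totals gave 774 and 1135, and no filter on low counts 991 and 701 of 17020. Of the genes named 45 lost their call with DESeq2, 31 without the female and 32 without the male stroke pool. S100a6 had a log2 change of 0.47 without the male sham pool in place of -0.03. Mki67 had 0.87 without cells with 10 or more G2/M UMIs in place of -3.16, and Cd36 had 0.0626 with a floor of 20 in place of -0.82. The cause was not tested. An alternative chosen after seeing the data, keeping cells with at least 20 Lyz2 UMIs per 10000, gave 869 higher and 960 lower genes.

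With a minimum of 20 CPM 256 genes were at least 4-fold higher and 391 at least 4-fold lower in macrophages than in microglia, and with 100 CPM 111 and 112. Between the sexes 11 genes were at least 2-fold higher in females and 6 in males at 20 CPM, and 3 and 0 at 100 CPM. Of 20 shares of cells with a UMI 20 moved unthinned, 17 at 5000 and 15 at 2000 UMIs. The depth of the sham pools, 195848 and 479145 UMIs in rule cells, limits what can be called absent there, since 3 UMIs are 15.3 CPM in the female and 6.26 CPM in the male sham pool. Stroke and sham pools were matched by sex through the sex term, without which edgeR called 1054 and 1122 genes. The labels give no replicate numbers that could pair the pools in another way.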

Other observations

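Further genes were higher in stroke macrophages than in sham rule cells and in microglia. Cd24a, a heavily glycosylated surface protein, stood at 128 and 101 CPM in the female and male stroke pools, at 0 UMIs in both sham pools and at 2.16 and 0.471 CPM in the microglia of the stroke pools. It was at least 8.33-fold higher in the female and 16.2-fold higher in the male stroke pool against the floor of 3 UMIs per sham pool. Slc6a8, the creatine transporter, had 51.1 and 47.8 CPM in the stroke pools, 0 UMIs in both sham pools and 3.77 and 2.61 CPM in microglia. Both rose by edgeR with adjusted p of 5.6e-21 and 3.0e-10, and DESeq2 gave 0.296 and 0.431. Il7r, the receptor chain for interleukin-7, was at 122 and 119 CPM in the stroke pools, 10.2 and 4.17 CPM in the sham pools (2 UMIs each) and 27.1 and 24.7 CPM in microglia. Within the macrophages Il7r was 4.45 and 5.65 times higher in Gpnmb-only than in Ccr2-only cells of the female and male pools.

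Retnla, a secreted protein of alternatively activated macrophages, was found in the rule cells of the male sham pool alone, at 902 CPM, and 1 cell held 84.3% of its UMIs. Cells with both 30 or more microglial and 10 or more monocyte UMIs per 10000, which the rule left out, numbered 62 in the female stroke, 28 in the male stroke, 0 in the female sham and 8 in the male sham pool. Their median depth was 13022 and 8832 UMIs in the stroke pools, beside 13149 and 13179.5 UMIs in the macrophages. The 11 T and NK cell markers summed to 126 and 123 CPM in stroke macrophages, with 4 and 3 of them detected, against 15.3 and 8.35 CPM in the rule cells of the sham pools. The rule used 5 of these markers to leave cells out, Cd3e, Cd3d and Cd3g among them, so their low counts were fixed in part by the selection. Il7r, which the rule did not use, gave 122 and 119 CPM of the stroke sums.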
